A study of Mus musculus with 6 samples.

Results

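The insulin-like growth factor (IGF) genes described here are the ligand genes Igf1 and Igf2, the receptor genes Igf1r and Igf2r, and the binding protein genes Igfbp2, Igfbp3, Igfbp4, Igfbp5, Igfbp6 and Igfbp7. They were taken by gene symbol from the deposited count table and make up 10 of its 17830 genes. All 10 passed the filter on low counts that kept 13484 genes for testing. They were measured by bulk RNA sequencing of tdTomato-positive calvarial cells of C57BL/6J mice aged 6 months, sorted by flow cytometry. The paper describes isolating these cells from skulls and, as a separate method, cultures grown out of calvarial bone chips. Its account of the sequenced cells does not mention culture. The comparison asks how transcripts in osteoblast-lineage cells differ when they carry a mutant amyloid precursor protein. The 3 control libraries came from mOCN-Cre; Ai9 mice and the 3 APPswe libraries from TgAPPswe mOCN-Cre; Ai9 mice. Both groups carry mOCN-Cre, a recombinase knocked in behind the osteocalcin gene Bglap, and Ai9, a reporter that makes tdTomato once Cre has acted. The mutants also carry a conditional human APP transgene with the Swedish mutation, which is expressed in any cell where Cre is or was active. The mouse App gene was at 983, 1290 and 1090 CPM (counts scaled to a common library size) in the controls and at 1010, 1050 and 1050 CPM in the APPswe libraries. The human transgene was not counted separately, so App does not check the genotype labels.

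IGF1 and IGF2 are secreted growth factors that act through the tyrosine kinase receptor IGF1R, which signals through its substrates to the PI3K, AKT and mTOR cascade. IGF2R, the cation-independent mannose 6-phosphate receptor, takes up IGF2 and delivers it to lysosomes without such signalling. The IGF-binding proteins hold the ligands outside the cell and are cut by proteases that release them, and bone matrix is a well-known store of both ligands and binding proteins.

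Total counts lay between 17263757 and 18398392 per library, and a floor of 3 counts corresponds to between 0.167 and 0.173 CPM. The library name of control replicate 2 ends in S, where the other names hold a capital L, and the labels do not explain the letters. Control replicate 2 stood apart from the other libraries. It held 2 counts over 4 Y-linked genes, where the other 5 libraries held between 2257 and 3406, and 1 count of Bglap, where they held between 115 and 204, although all animals are described as male. The biological coefficient of variation was 0.298 and 0.305 between it and the other controls, 0.0657 between those other controls, and between 0.0202 and 0.0784 among the APPswe libraries. Each comparison of the IGF genes is therefore given with and without control replicate 2.

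The cells are labelled as osteoblasts, and markers of other cell types were present beside those of osteoblasts. The summed level of 13 macrophage markers was between 17500 and 24300 CPM in the controls and between 12400 and 13300 CPM in the APPswe libraries, and with all libraries 7 of them passed the test as lower (edgeR adjusted p of at most 0.05) and 1 as higher. The 12 osteoblast markers summed to between 8690 and 11500 CPM and to between 7960 and 8760 CPM, most of it type I collagen. Without Col1a1 and Col1a2 the other 10 osteoblast markers summed to 227, 50.2 and 227 CPM in the controls and to between 233 and 247 CPM in the APPswe libraries. Of the 12, Sp7 and Runx2, transcription factors of the lineage, passed as higher with 6 libraries (log2 fold changes of 1.98 and 0.63). With control replicate 2 left out, 4 passed as higher and 5 as lower, among the latter the osteocyte gene Dmp1 (-4.21) and the osteocalcin copy Bglap2 (-1.12). Osteoclast markers summed to between 143 and 223 CPM in the controls and to between 646 and 662 CPM in the APPswe libraries, and 5 of the 6 that could be tested passed as higher. Skeletal muscle markers summed to between 2.95 and 13.8 CPM and to between 193 and 198 CPM, with all 11 tested passing as higher, while Ckm was at 0 in every control. Endothelial markers summed to 198, 26.8 and 206 CPM in the controls and to between 9.97 and 11.4 CPM in the APPswe libraries. Of the 5 tested, 1 passed as lower. In control replicate 2 the marker Kdr alone held 25.5 CPM of this sum. The median endothelial marker was at 29.3, 0.225 and 31.6 CPM in the controls and between 1.48 and 1.77 CPM in the APPswe libraries. Without control replicate 2, all 6 endothelial markers passed as lower. Fibroblast markers lay between 676 and 1330 CPM in the controls and between 1060 and 1100 CPM in the APPswe libraries. Chondrocyte markers lay between 182 and 342 CPM and between 378 and 413 CPM, and in control replicate 2 Col2a1 alone held 162 CPM. With 6 libraries 1 marker of each list passed as higher. Without control replicate 2, 1 fibroblast marker passed as higher and 2 as lower, and all 4 chondrocyte markers passed as higher. In bulk libraries fewer cells of a type cannot be told apart from less RNA per cell, and the part of these cell types in the IGF results was not tested.

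**Figure D1:**
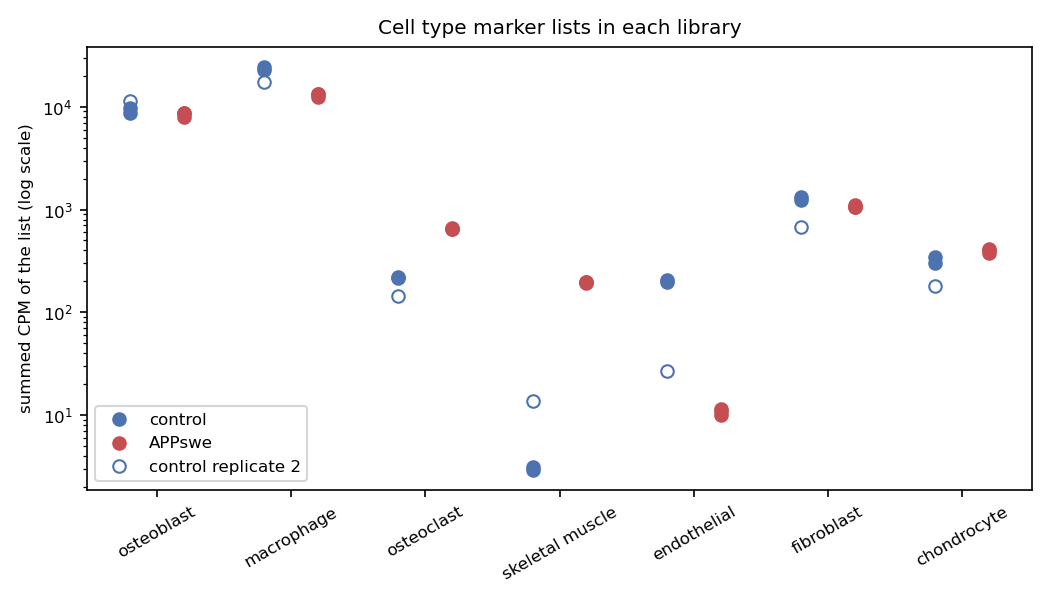
Summed CPM of each cell type marker list (log axis) in the 3 control and 3 APPswe libraries, with 1 point per library and control replicate 2 drawn as an open symbol. Muscle markers lay between 193 and 198 CPM in the APPswe libraries and at or under 13.8 CPM in the controls, and macrophage markers lay at or under 13300 CPM in the APPswe libraries and at or above 17500 CPM in the controls.

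The p-values of edgeR's quasi-likelihood test were adjusted over all genes tested (Benjamini-Hochberg), and a gene that passed was called where its log2 fold change, APPswe against control, was also at least 1 in size. With all 6 libraries none of the 10 IGF genes was called by edgeR, against a background of 7.34% of all genes tested, 3.74% called higher and 3.60% lower. DESeq2 also called 0, limma on log2(FPKM + 1) called 1, and 2 of the 10 had an unadjusted edgeR p under 0.05. Igfbp5 alone passed on the adjusted p, as lower, where 22.5% of all genes passed. Without control replicate 2, 2 of the 10 passed as higher (23.3% of all genes did) and 4 as lower (25.0% did), or 6 in all against 48.3%. In that fit 1 of the 10 was called higher and 0 lower, where 4.87% of all genes were called higher, 6.58% lower and 11.5% either way. The control and APPswe values did not overlap for 4 of the 10 with 6 libraries, against 45.0% of all genes (22.8% higher in APPswe and 22.2% lower). Without control replicate 2 they did not overlap for 7 of the 10, against 66.2% of all genes (32.9% higher and 33.3% lower). The shares of the IGF genes were near those of all genes or, for the adjusted p with 6 libraries, below them. The median log2 fold change of the 10 was -0.12 with 6 libraries and -0.08 without control replicate 2, against 0 and 0.01 over all genes tested. The labels do not say whether the replicates came from separate animals or cultures, so the p-values measure the spread between these libraries, which may be technical.

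**Figure D2:**
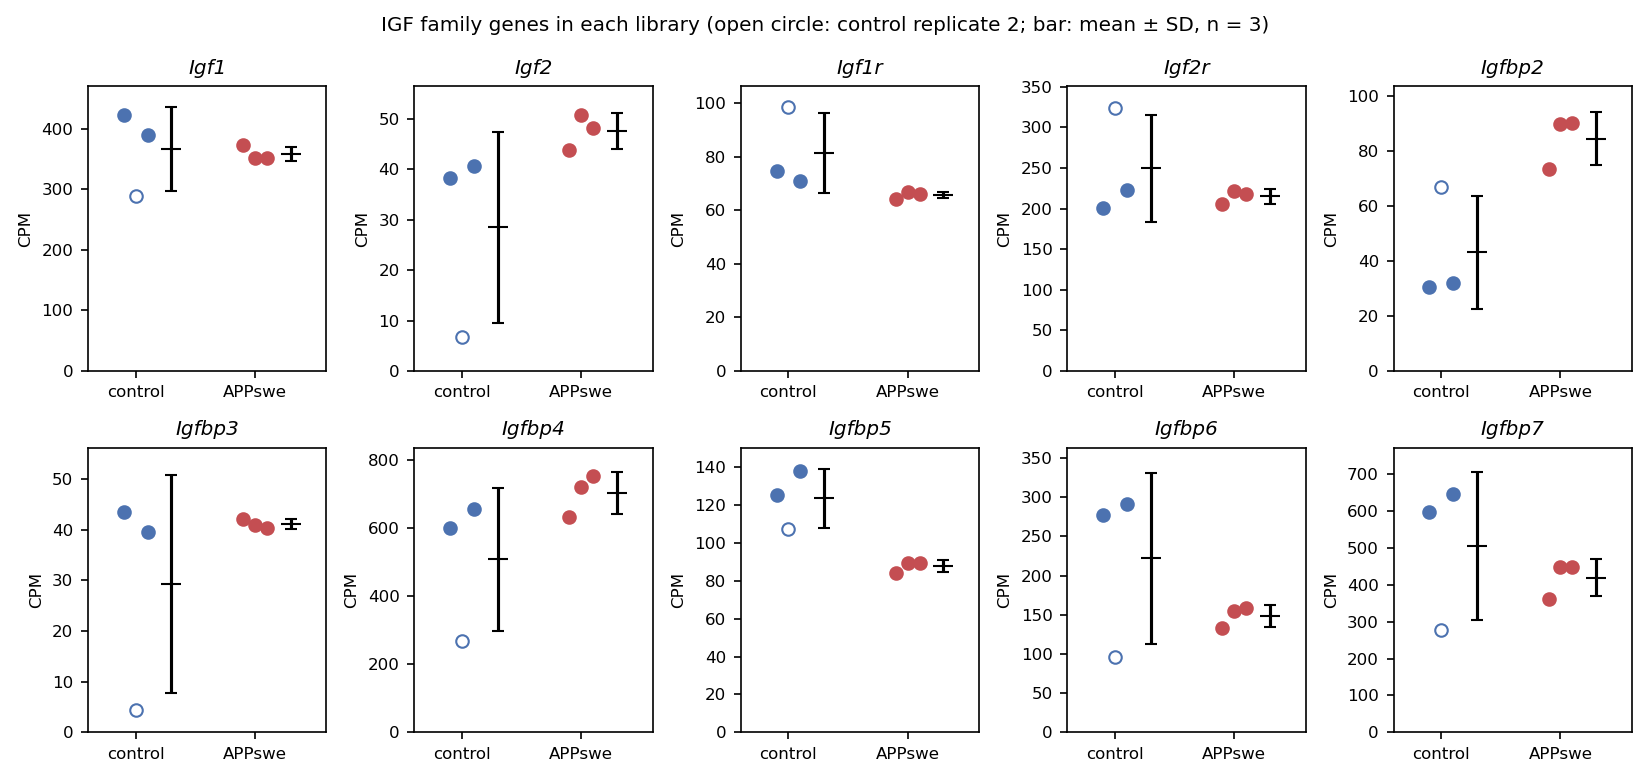
TMM-normalized CPM of each of the 10 IGF genes in the 3 control and 3 APPswe libraries, with 1 point per library, bars of the group mean ± SD beside them, control replicate 2 drawn as an open symbol, and a separate linear axis from 0 for each gene. The APPswe values lie close together, while control replicate 2 lies far below the other controls for Igf2 (6.69 CPM) and Igfbp3 (4.5 CPM) and above them for Igfbp2 (66.9 CPM).

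Levels of different genes were compared in FPKM, fragments scaled by library size and transcript length. Igfbp7 was the most abundant of the 10, then came Igfbp4 and then Igfbp6, in each of the 6 libraries. Igfbp7 had 570 ± 225 FPKM in control and 499 ± 54.2 FPKM in APPswe (mean ± SD, n = 3 each), Igfbp4 had 269 ± 110 and 393 ± 30.9 FPKM, and Igfbp6 had 209 ± 102 and 148 ± 12.2 FPKM. The group means of Igfbp4 and Igfbp6 in control lay within their spread, although Igfbp4 was the higher in every library. Igf1 and Igfbp2 took ranks 4 and 5 in every library, Igf1 ahead in controls 1 and 3 and Igfbp2 ahead in control 2 and in the 3 APPswe libraries. Igf2r was sixth throughout, at 28.0 ± 7.54 FPKM in control and 25.4 ± 0.861 FPKM in APPswe. Igf2, Igfbp3 and Igfbp5 exchanged places below it, with control means of 10.1, 13.0 and 21.4 FPKM. In the APPswe libraries Igf2 lay between 18.3 and 21.8 FPKM, Igfbp3 between 18.8 and 19.95 FPKM and Igfbp5 between 15.6 and 16.3 FPKM. Igf1r was the lowest in 5 of the 6 libraries, at 7.22 ± 1.22 FPKM in control and 6.21 ± 0.0802 FPKM in APPswe.

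The spread within the controls came largely from replicate 2. Its CPM divided by the mean of the other controls was 0.108 for Igfbp3, 0.17 for Igf2, 0.339 for Igfbp6, 0.427 for Igfbp4 and 0.445 for Igfbp7. It was nearer to 1 for Igf1 (0.71) and Igfbp5 (0.814), and above 1 for Igf1r (1.36), Igf2r (1.53) and Igfbp2 (2.14). The coefficient of variation ran from 12.6% for Igfbp5 to 73.6% for Igfbp3 in control, and from 1.8% for Igf1r to 11.9% for Igfbp7 in APPswe.

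Of the ligand genes, Igf1 (chromosome 10, 87858265 to 87937047, + strand, GRCm38) encodes the main ligand of IGF1R in the adult and is transcribed by macrophages as well as by osteoblasts. Its level was 422, 288 and 389 CPM in the controls and 372, 351 and 351 CPM in the APPswe libraries. The groups overlapped with 6 libraries, and without control replicate 2 all APPswe values lay below both controls. Its log2 fold change was -0.03 (SE 0.14, edgeR adjusted p = 0.887) with 6 libraries and -0.18 (SE 0.06, edgeR adjusted p = 0.0388) without control replicate 2. The 13 macrophage markers summed to lower levels in the APPswe libraries, but not every marker was lower. With 6 libraries 7 passed as lower and 1 as higher, and without control replicate 2, 10 passed as lower and 2 as higher. The part of macrophages in the level of Igf1 was not tested.

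Igf2 (chromosome 7, 142650768 to 142666816, - strand) encodes the fetal growth ligand and is imprinted, being expressed from the paternal copy. Its level was 38.2, 6.69 and 40.7 CPM in the controls and 43.8, 50.8 and 48.1 CPM in the APPswe libraries. Every APPswe library lay above every control, but most of the 6-library difference came from control replicate 2, which held 119 counts of Igf2 where the others held between 662 and 912. Its fitted log2 fold change was 0.74 (SE 0.57, edgeR adjusted p = 0.383) with 6 libraries, and without control replicate 2 Igf2 rose by 0.27 (SE 0.08, edgeR adjusted p = 0.0217). Igf1os and Igf2os lie on the opposite strand of the ligand genes. The strand setting of the counting is not given in the sources used here. Reads from any bases that these antisense genes share with Igf1 and Igf2 therefore cannot be told apart.

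Of the receptor genes, Igf1r (chromosome 7, 67952257 to 68233668, + strand) was at 74.7, 98.6 and 70.8 CPM in the controls and at 64.3, 66.6 and 66.0 CPM in the APPswe libraries. All APPswe values lay below all controls, with control replicate 2 the farthest away. The log2 fold change was -0.31 (SE 0.13, edgeR adjusted p = 0.138) with 6 libraries and -0.15 (SE 0.07, edgeR adjusted p = 0.0974) without control replicate 2, and neither passed.

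Igf2r (chromosome 17, 12682406 to 12769706, - strand) was at 201, 324 and 223 CPM in the controls and at 205, 222 and 218 CPM in the APPswe libraries. The APPswe values lay between controls 1 and 3, and control replicate 2 lay above all of them. In the edgeR fit its log2 fold change was -0.21 (SE 0.18, edgeR adjusted p = 0.428) and, without control replicate 2, 0.03 (SE 0.07, edgeR adjusted p = 0.772). Igf2r is imprinted through the antisense transcript Airn, which overlaps it on the other strand.

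**Figure D3:**
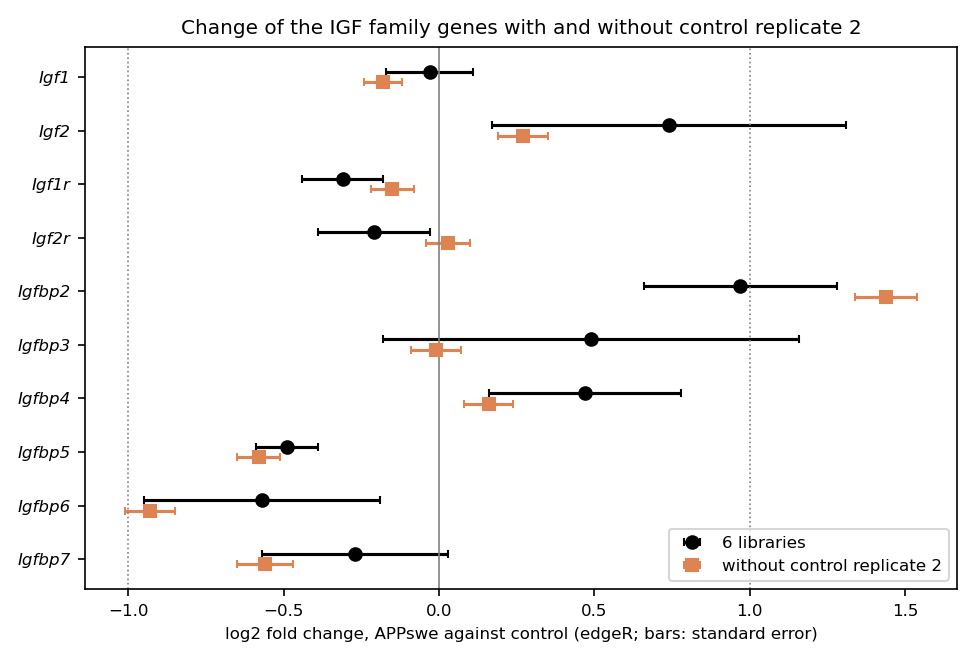
Log2 fold change of each IGF gene, APPswe against control, from the edgeR fit with 6 libraries (circles) and without control replicate 2 (squares), with standard errors as bars and dotted lines at a log2 fold change of 1 in either direction. Igfbp2 lies at 0.97 and 1.44 and Igfbp5 at -0.49 and -0.58. In the fit without control replicate 2, Igf1, Igf1r, Igf2r, Igfbp3 and Igfbp4 lie within 0.18 of 0.

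Among the binding protein genes, Igfbp2 was higher and Igfbp5 lower in every APPswe library than in every control, and these genes are neighbours on chromosome 1 that are transcribed towards each other, with 5590 bases between their ends. The 250 bases before their starts are shown because the neighbours differed in opposite directions. Those before Igfbp4 and Igfbp7 are shown because these were the most abundant binding protein genes. This pair was also chosen after its ratio was seen to separate the groups, as did the ratios of 46.3% of all pairs of genes tested. The sequences are from RefSeq (GRCm38.p6), written on the strand of the gene, and capitals mark TATAAA or GGGCGG on either strand (CCGCCC where it lies on the other strand). They cover chr1:72824230-72824479 (+ strand) for Igfbp2, chr1:72874866-72875115 (- strand) for Igfbp5, chr11:99040994-99041243 (+ strand) for Igfbp4 and chr5:77408046-77408295 (- strand) for Igfbp7. The Igfbp4 window lies before the only start listed for that gene in the promoter table, which is downstream of the outer end of the gene given for Igfbp4 in its own paragraph.
Igfbp2: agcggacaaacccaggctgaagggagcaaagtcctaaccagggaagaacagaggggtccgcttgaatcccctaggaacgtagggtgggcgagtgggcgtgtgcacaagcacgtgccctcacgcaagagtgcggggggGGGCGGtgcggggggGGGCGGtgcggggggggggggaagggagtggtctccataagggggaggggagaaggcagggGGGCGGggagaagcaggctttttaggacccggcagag
Igfbp5: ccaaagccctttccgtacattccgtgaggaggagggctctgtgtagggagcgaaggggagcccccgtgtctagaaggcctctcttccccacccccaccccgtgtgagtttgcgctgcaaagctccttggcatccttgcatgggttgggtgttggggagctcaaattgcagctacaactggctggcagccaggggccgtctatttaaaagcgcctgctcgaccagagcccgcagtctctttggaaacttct
Igfbp4: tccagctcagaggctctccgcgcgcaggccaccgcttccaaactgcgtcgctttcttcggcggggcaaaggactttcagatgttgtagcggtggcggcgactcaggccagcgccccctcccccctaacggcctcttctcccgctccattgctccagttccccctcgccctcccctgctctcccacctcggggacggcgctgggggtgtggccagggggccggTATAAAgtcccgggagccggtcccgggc
Igfbp7: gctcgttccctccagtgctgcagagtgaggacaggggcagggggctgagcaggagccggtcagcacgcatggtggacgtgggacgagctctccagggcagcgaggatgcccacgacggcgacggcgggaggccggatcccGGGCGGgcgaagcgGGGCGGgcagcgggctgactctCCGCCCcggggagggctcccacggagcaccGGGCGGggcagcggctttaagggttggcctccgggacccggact

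GGGCGG, the core of the GC box, occurred 3 times before the shown start of Igfbp2 and 4 times before Igfbp7. It was not found in the windows of Igfbp5 and Igfbp4. Igfbp2 has 2 listed starts, and the window before its other start, which is not shown, held no GGGCGG. The contrast between Igfbp2 and its neighbour Igfbp5 therefore depends on the start chosen. TATAAA, the TATA box core, occurred before Igfbp4. CAGCTG, an E-box and the other motif searched, was found before Igf1 alone among the 10. Of the 14 starts listed for the 10 genes, 6 had GGGCGG, 2 had TATAAA and 1 had CAGCTG, while 32.7% of 32851 mouse promoter windows of the same length held GGGCGG, 12.4% TATAAA and 13.0% CAGCTG. No matches shared a base in the windows shown, and a match describes the sequence alone.

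Igfbp2 (1, 72824480 to 72852474, + strand) encodes a binding protein that prefers IGF2 and is made by osteoblasts. Its level was 30.5, 66.9 and 31.9 CPM in the controls and 73.3, 89.9 and 90.2 CPM in the APPswe libraries. All APPswe values were higher than all controls, with control replicate 2 the closest to them. Its log2 fold change was 0.97 (SE 0.31, edgeR adjusted p = 0.0648) with 6 libraries, which did not pass. Without control replicate 2 Igfbp2 rose by 1.44 (SE 0.10, edgeR adjusted p = 1.22e-06) and was called. On the same 6 libraries DESeq2 gave 0.96 (DESeq2 adjusted p = 0.00801) and limma on log2(FPKM + 1) gave 1.13 (limma adjusted p = 0.034), so the call on Igfbp2 depended on the method.

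Igfbp5 (1, 72858065 to 72874865, - strand) encodes the binding protein most bound to bone mineral and matrix. Its level was 125, 107 and 138 CPM in the controls and 84.2, 89.4 and 89.5 CPM in the APPswe libraries. All APPswe values were lower than all controls, and control replicate 2 was the lowest control. The log2 fold change was -0.49 (SE 0.10, edgeR adjusted p = 0.0198) with 6 libraries and -0.58 (SE 0.07, edgeR adjusted p = 6.19e-05) without control replicate 2, so Igfbp5 fell but did not reach the fold limit. The edgeR adjusted p rose to 0.0817, 0.0847 or 0.0823 without APPswe replicate 1, 2 or 3, and to 0.0567 without control replicate 1.

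Igfbp3 (chromosome 11, 7206086 to 7215498, - strand), whose product is the main carrier of IGF in blood, was at 43.6, 4.5 and 39.6 CPM in the controls and at 42.2, 40.9 and 40.4 CPM in the APPswe libraries. The 5 libraries other than control replicate 2 spanned less than the gap to it, and control replicate 2 held 80 counts. On the log2 scale the fold change was 0.49 (SE 0.67, edgeR adjusted p = 0.632) with 6 libraries and -0.01 (SE 0.08, edgeR adjusted p = 0.905) without that library.

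Igfbp4 (chromosome 11, 99040005 to 99052655, + strand) encodes a binding protein known for holding IGF back from bone cells until the protease PAPP-A cuts it. It was at 602, 269 and 657 CPM in the controls and at 635, 723 and 754 CPM in the APPswe libraries, and the groups overlapped. In the edgeR fit its log2 fold change was 0.47 (SE 0.31, edgeR adjusted p = 0.316) with 6 libraries and 0.16 (SE 0.08, edgeR adjusted p = 0.108) without control replicate 2.

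Igfbp6 (chromosome 15, 102144186 to 102149512, + strand) encodes the binding protein with the strongest preference for IGF2. It was at 278, 96.5 and 292 CPM in the controls and at 133, 155 and 159 CPM in the APPswe libraries. Control replicate 2 was the lowest library of all, and the other controls lay above every APPswe library. The log2 fold change was -0.57 (SE 0.38, edgeR adjusted p = 0.316) with 6 libraries, and without control replicate 2 Igfbp6 fell by 0.93 on the log2 scale (SE 0.08, edgeR adjusted p = 4.34e-06).

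Igfbp7 (chromosome 5, 77349240 to 77408045, - strand) encodes a related protein that binds IGF weakly and is deposited around blood vessels. It was at 596, 276 and 645 CPM in the controls and at 362, 449 and 447 CPM in the APPswe libraries. As for Igfbp6, control replicate 2 was the lowest library and the other controls were the highest. Its fitted log2 fold change was -0.27 (SE 0.30, edgeR adjusted p = 0.553) with 6 libraries, and without control replicate 2 Igfbp7 fell by 0.56 on the log2 scale (SE 0.09, edgeR adjusted p = 0.000484). The genes Gm34648 and Polr2b overlap the span of Igfbp7 on the opposite strand. Without the strand setting, reads from any bases they share with Igfbp7 cannot be told apart from its own. How much of the exons is shared was not measured. Igfbp7 is abundant in endothelial cells, whose markers summed to lower levels in APPswe than in controls 1 and 3. In control replicate 2 their sum was mostly Kdr, and their median lay below that of every APPswe library. The part of those cells in the level of Igfbp7 was not tested.

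The shares of Igfbp4 (23.6% ± 0.997) and Igfbp7 (50.2% ± 1.12, mean ± SD, n = 3) among the binding proteins varied little within the controls, while those of Igfbp2 (5.25% ± 4.9) and Igfbp5 (2.08% ± 0.742) varied widely. As a share of the summed FPKM of the 6 binding protein genes, Igfbp7 took 50.5%, 49.0% and 51.2% in the controls and 41.4%, 43.7% and 42.7% in the APPswe libraries. Igfbp4 took 24.0%, 22.5% and 24.4% in the controls and 34.0%, 33.0% and 33.8% in the APPswe libraries. Control replicate 2 lay with the other controls in both of these shares. Igfbp6 took 19.7%, 14.4% and 19.4% against 12.8%, 12.6% and 12.7%, again without overlap. Igfbp2 took 2.66%, 10.9% and 2.20% in the controls and 8.48%, 7.78% and 7.95% in the APPswe libraries, so here control replicate 2 exceeded the mutants. Igfbp5 took between 1.64% and 2.94% in the controls and between 1.32% and 1.48% in the APPswe libraries, and Igfbp3 between 0.316% and 1.46% and between 1.52% and 1.89%. The summed FPKM of the 6 genes was 1130 ± 429 in control and 1170 ± 101 in APPswe (mean ± SD, n = 3 each), a difference smaller than the spread. Shares of one sum are tied, so a lower share of one gene raises the shares of others. Without control replicate 2 the log2 fold change was 0.16 for Igfbp4, which did not pass, -0.56 for Igfbp7 and -0.93 for Igfbp6. How often such shares do not overlap for other sets of genes was not measured.

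**Figure D4:**
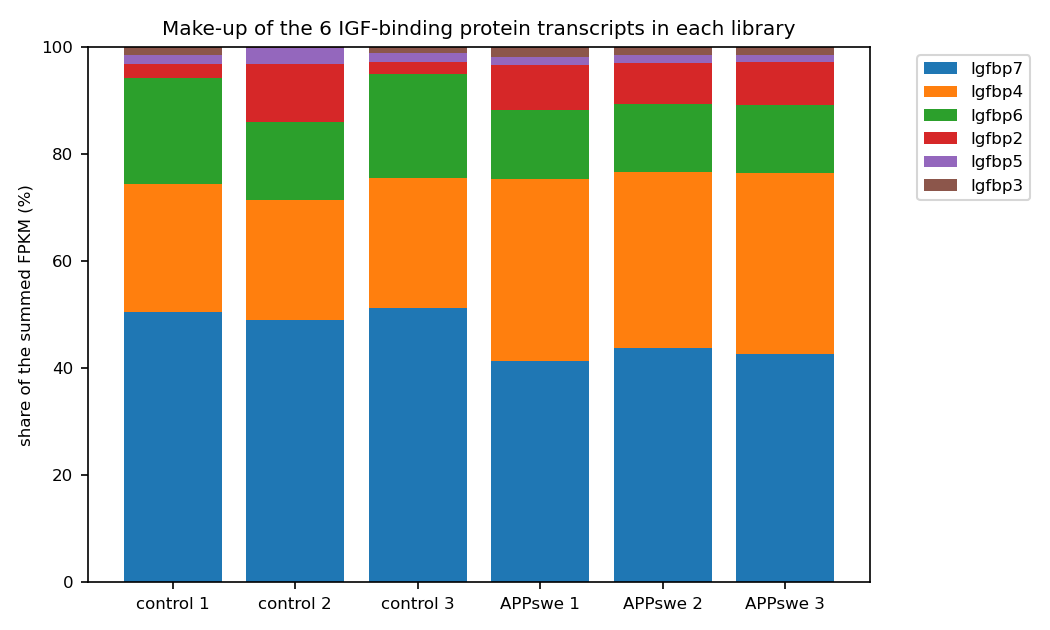
Share of each of the 6 binding protein genes in their summed FPKM (%, stacked bars from 0 to 100) in the 3 control and 3 APPswe libraries. Igfbp4 takes between 22.5% and 24.4% in the controls and between 33.0% and 34.0% in the APPswe libraries, while Igfbp7 takes between 49.0% and 51.2% and between 41.4% and 43.7%.

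Proportions were also taken as the ratio of counts of gene pairs, which does not depend on the scaling of a library. The pairs given here were chosen after their values were seen. Igfbp4 over Igfbp7 was 1.01, 0.976 and 1.02 in the controls and 1.76, 1.61 and 1.69 in the APPswe libraries, a difference of 0.75 on the log2 scale, or 0.73 without control replicate 2. Igfbp4 over Igfbp6 was 2.17, 2.79 and 2.25 in the controls and 4.76, 4.67 and 4.74 in the APPswe libraries, a log2 difference of 0.98, or 1.10 without control replicate 2. For the neighbouring genes, Igfbp2 over Igfbp5 was 0.245, 0.627 and 0.232 in the controls and 0.871, 1.01 and 1.01 in the APPswe libraries, a log2 difference of 1.54, or 2.01 without control replicate 2. Of all 45 pairs of the IGF genes, 22 had ratios that did not overlap between the groups, and 46.3% of all pairs of genes tested did not overlap either. The two-sided exact permutation test of 3 libraries against 3 cannot give a p below 0.1, and after Benjamini-Hochberg adjustment over the 45 pairs the smallest exact p was 0.205, so no pair passed.

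A list of 61 other genes of the pathway had values here for 57, of which 52 could be tested. With 6 libraries 6 of these rose and 2 fell at the adjusted p, so that 8 of 52 passed, a smaller share than the 22.5% of all genes. Of the 52, 2 were called higher, beside 3.74% of all genes, and 0 lower, beside 3.60%. Without control replicate 2, 19 rose and 11 fell, so that 30 of 52 passed where 48.3% of all genes did. In that fit 3 were called, all higher, where 4.87% of all genes were called higher, 6.58% lower and 11.5% either way. The median log2 fold change over the 52 was 0.01 with 6 libraries and 0.09 without control replicate 2. Both genes called with 6 libraries, Adam12 and Dlk1, rose. Pathway genes named beyond those were chosen after their values were seen.

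Of the 6 genes for binding protein proteases and their inhibitors, only Adam12 passed with 6 libraries, where 22.5% of all genes passed. Adam12 encodes a membrane protease able to cut IGFBP3 and IGFBP5. Adam12 was at 20.4, 22.9 and 21.9 CPM in the controls and at 87.6, 82.7 and 80.1 CPM in the APPswe libraries. The controls lay close together, control replicate 2 included, and far from the mutants. Adam12 rose by 1.94 (SE 0.08, edgeR adjusted p = 0.000287) with 6 libraries and by 1.98 (SE 0.08, edgeR adjusted p = 2.19e-08) without control replicate 2. Adam12 is also a gene of fusing muscle cells. The skeletal muscle markers summed to at most 13.8 CPM in the controls and to between 193 and 198 CPM in the APPswe libraries. The part of muscle cells in the level of Adam12 was not tested. Pappa, which encodes PAPP-A, was at 23.3, 37.4 and 20.9 CPM in the controls and at 42.8, 45.7 and 43.7 CPM in the APPswe libraries. All mutants lay above all controls, with a log2 fold change of 0.70 (SE 0.21, edgeR adjusted p = 0.0592) that did not pass, and Pappa rose by 1.00 (SE 0.09, edgeR adjusted p = 4.58e-06) without control replicate 2, just under the fold limit before rounding and so not called. Without that library the related protease gene Pappa2 fell by 0.61 on the log2 scale (SE 0.09, edgeR adjusted p = 0.000311) and Htra1, a secreted serine protease gene, fell by 0.55 (SE 0.06, edgeR adjusted p = 2.81e-05), while with it their log2 fold changes were -0.34 and -0.31 and did not pass.

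Of 6 imprinted growth genes tested, 2 rose with 6 libraries, where 22.5% of all genes passed. Without control replicate 2, 4 rose and 1 fell, where 48.3% of all genes passed. Dlk1, a paternally expressed gene for a membrane protein of immature cells, was at 1.67, 0.731 and 2.03 CPM in the controls and at 22.3, 26.7 and 27.5 CPM in the APPswe libraries. Dlk1 thus rose from a low level in every control, by 4.10 (SE 0.33, edgeR adjusted p = 0.000851) with 6 libraries and by 3.78 (SE 0.16, edgeR adjusted p = 3.11e-08) without control replicate 2. Peg3, a zinc finger gene, rose by 0.42 (SE 0.12, edgeR adjusted p = 0.0463). Mest, another paternally expressed gene, was at 22.8, 2.42 and 20.8 CPM in the controls and at 78.3, 74.3 and 68.3 CPM in the APPswe libraries. Like Igf2, Mest was lowest in control replicate 2, but its other controls also lay well below the mutants. Its log2 fold change was 2.26 (SE 0.66, edgeR adjusted p = 0.0501) with 6 libraries, just over the limit, and it rose by 1.76 (SE 0.09, edgeR adjusted p = 1.02e-07) without control replicate 2. Ndn, also paternally expressed, was the gene that fell in that fit, by 0.55 on the log2 scale (SE 0.08, edgeR adjusted p = 0.000153), and it was at -0.31 (SE 0.24, edgeR adjusted p = 0.374) with 6 libraries.

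Of the 7 genes for receptor substrates and adaptors, Grb10, itself imprinted and an inhibitor of signalling by the insulin and IGF receptors, was at 129, 164 and 111 CPM in the controls and at 226, 205 and 200 CPM in the APPswe libraries. Grb10 rose by 0.65 (SE 0.15, edgeR adjusted p = 0.0246) with 6 libraries and by 0.82 (SE 0.08, edgeR adjusted p = 1.87e-05) without control replicate 2. Grb2, which couples receptors to RAS, fell by 0.33 on the log2 scale (SE 0.07, edgeR adjusted p = 0.0229), from 219, 198 and 217 CPM to 168, 172 and 166 CPM. The receptor substrate genes Irs1 and Irs2 had log2 fold changes of 0.30 and 0.00 and did not pass. The insulin receptor gene Insr, whose product also forms hybrids with IGF1R, rose by 0.35 (SE 0.09, edgeR adjusted p = 0.0342), from 32.6, 31.8 and 27.8 CPM to 39.6, 39.9 and 38.1 CPM.

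Of the 20 genes of the PI3K, AKT and mTOR cascade, Pik3r3, a regulatory subunit gene of PI3K, was the only one to pass with 6 libraries, rising by 0.40 (SE 0.08, edgeR adjusted p = 0.0155). With 6 libraries 22.5% of all genes passed. Without control replicate 2, 5 of the 20 rose and 4 fell, a share near the 48.3% of all genes that passed in that fit. None of the 20 was called with or without control replicate 2. Of the 4 genes for sorting by mannose 6-phosphate, the signal that IGF2R recognises, Nagpa fell with 6 libraries. Nagpa encodes the enzyme that uncovers this signal, and it was at 71.0, 70.8 and 78.8 CPM in the controls and at 41.0, 49.9 and 49.7 CPM in the APPswe libraries. It fell by 0.65 on the log2 scale (SE 0.10, edgeR adjusted p = 0.00706), and its controls, replicate 2 included, all lay above the mutants. None of the 5 genes of growth hormone signalling passed with 6 libraries. Without control replicate 2, 2 rose and 1 fell, where 48.3% of all genes passed.

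**Figure D5:**
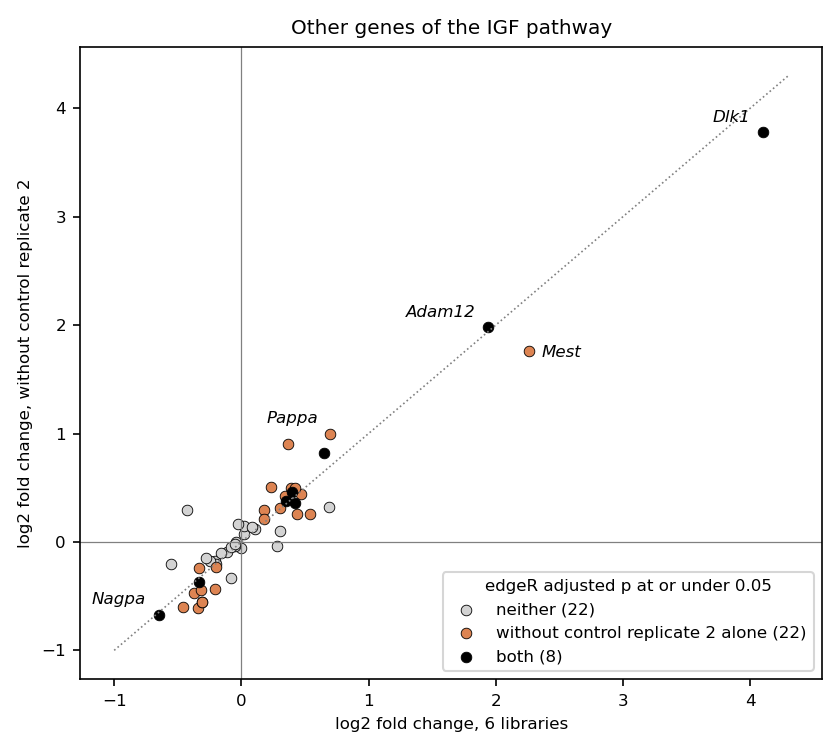
Log2 fold change, APPswe against control, of the 52 tested genes of the IGF pathway list, with 6 libraries (horizontal axis) and without control replicate 2 (vertical axis), the dotted line marking equal values. Dlk1 (4.10 and 3.78), Mest (2.26 and 1.76) and Adam12 (1.94 and 1.98) stand away from the rest on both axes, and 22 genes passed only in the fit without control replicate 2.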

How the data were processed

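SMARTER mRNA-Seq libraries of 3 control and 3 APPswe samples were sequenced on a DNBseq platform. Sample titles and genotypes gave the groups and replicate numbers. The deposited counts are raw reads per gene, and the deposited FPKM values are the scaling of the authors by depth and transcript length. Blank FPKM cells, in 397 genes for some libraries and 716 for the others, were read as 0. Columns that the authors deposited for their own comparison, log2 fold changes and p-values, were not used. The build is GRCm38 per the submitters' processing notes. The aligner, counting tool and strand setting are not given in the sources used here.

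Counts were scaled by TMM, filtered by filterByExpr and tested with the quasi-likelihood test of edgeR 4.0.16 in R 4.3.3 without a covariate, keeping 13484 of 17830 genes. Calls needed an adjusted p no higher than 0.05 and a log2 fold change no smaller than 1 in size. All library pairs differed by more than sampling noise and were kept separate. Floors cover counting error only, while the standard errors come from the edgeR fit and include the spread between libraries. Other settings tried were DESeq2 1.42.0, edgeR with the DESeq2 size factors, no TMM, no filter, no fold limit, limma 3.58.1 on log2(FPKM + 1) or log2(FPKM + 0.1), a replicate block, a covariate for how libraries are named, and leaving out each library. The alternatives for pair ratios were chosen after seeing the data. The members, the pathway and marker lists and the rule for named genes (all 10 members, called pathway genes, App and Bglap) were chosen with earlier results of these data known. Gene positions and antisense overlaps are from RefSeq (GRCm38.p6) and GENCODE M21, and the 10 members matched 14 starts in the RefSeq promoter table. Exact tests used scipy 1.17.1. Tested on simulated data of the APPswe comparison with a log2 fold change of 2 in 200 genes, edgeR called 175 of the 194 changed genes it tested and 5 unchanged genes among 13375.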

Additional observations from a re-analysis of the deposited data

How the results depend on the processing

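Of the 14 alternatives, those on all libraries kept the direction of each IGF gene except Igf1, which was -0.03 and became 0.04 without TMM, 0.05 with limma on log2(FPKM + 1) and 0.06 with log2(FPKM + 0.1). With each library left out in turn, Igf1 ran from -0.18 to 0.08, Igf2r from -0.35 to 0.03 and Igfbp3 from -0.01 to 0.90. Igfbp5 ran from -0.58 to -0.40 and passed in 10 of the 14, and Igfbp2 ran from 0.77 to 1.44 and passed in 4. Over all genes, 504 were called higher and 486 lower, and 281 to 670 and 230 to 905 with a library left out, the most without control replicate 2 (670 and 905) and the fewest without APPswe replicate 3 (281 and 230). Limma called 316 and 185 with a pseudocount of 1, and 556 and 313 with 0.1. Without the fold limit 1414 genes passed as higher and 1622 as lower. Of the IGF genes, 1 (Igfbp2) was called higher by limma under either pseudocount, 0 to 1 with a library left out, and 1 (Igfbp5) was lower without the fold limit. Of the pathway genes, 2 to 3 were called higher with a library left out, and without the fold limit 6 passed as higher and 2 as lower. The cause of these changes was not tested. Deviations of each gene from its group mean on the log2 CPM scale were correlated between control and APPswe samples. Same-numbered samples gave 0.091, -0.049 and 0.214, and samples of unlike number gave -0.284 to 0.168. The numbers were therefore not treated as pairs. With the replicate block 384 genes were called higher and 324 lower, 0 of them IGF genes, and Igfbp5 was at -0.48 (edgeR adjusted p = 0.0458). The ratio of Igfbp4 to Igfbp7 differed by 0.72 to 0.78 on the log2 scale with a library left out. Counts of 80 to 13420 per IGF gene and library leave counting error small beside the spread between controls.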

Other observations

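The genes for the IGF2 mRNA-binding proteins, which bind and stabilise Igf2 and other transcripts in fetal and growing tissue, were highest in control replicate 2, the library with the least Igf2. Igf2bp1 was at 0.462, 4.05 and 0.226 CPM in the controls and at 0.673, 0.501 and 0.169 CPM in the APPswe libraries, and was too low to be tested. Igf2bp2 was at 14.8, 34.7 and 15.0 CPM in the controls and at 28.8, 27.7 and 26.9 CPM in the APPswe libraries. Its log2 fold change was 0.37 (SE 0.33, edgeR adjusted p = 0.46) with 6 libraries, and it rose by 0.90 (SE 0.09, edgeR adjusted p = 1.25e-05) without control replicate 2. Igf2bp3 was at 2.71, 7.31 and 2.26 CPM in the controls and at 3.81, 3.01 and 2.30 CPM in the APPswe libraries. The levels of these genes were looked at after the low Igf2 of control replicate 2 was seen, and those of Tmem219 were likewise chosen after they were seen.

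Of the 6 genes with values in the list of other ligands, receptors and binding proteins, 4 were too low to be tested. Tmem219, which encodes a receptor for IGFBP3, was at 24.4, 22.9 and 25.4 CPM in the controls and at 27.2, 35.2 and 38.4 CPM in the APPswe libraries. Its log2 fold change was 0.47 (SE 0.14, edgeR adjusted p = 0.0532) with 6 libraries, which did not pass, and it rose by 0.44 (SE 0.13, edgeR adjusted p = 0.0179) without control replicate 2.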
